A study of Drosophila melanogaster with 12 samples.

Results

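Among the transcripts assembled from the larval RNA-seq reads, 89 were limited to males in control larvae. They were chosen from the normalized counts of 3 of the 4 groups: at most 3 in every control female library, a mean of at least 50 and a minimum of at least 10 over the control male libraries, and a mean under 10 over the mutant female libraries. The 38 transcripts whose names start with MSTRG.267 were left out, and 0 of them met the thresholds. The 89 were taken from 5969 assembled transcripts, in a table of 41081 transcripts, and they lie at 77 of 2342 assembled loci. The levels in mutant males had no part in the choice, and they are the subject here: which of these transcripts were still found in *ISWI* mutant males, and which were not.

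The libraries came from whole third-instar larvae raised at 25 °C, in 4 groups of 3 libraries each, and each library was a pool of larvae. Controls were +/+ females and +/+ males, and mutants were Iswi1/Iswi2 females and males. The mutant larvae carried 2 different point mutations of *ISWI* over each other, came from stocks in a *yw* background, and were picked by the absence of the GFP of the balancer chromosome. Strain background changed together with genotype, so the effects of the 2 cannot be told apart. Ribosomal RNA was removed from the libraries before sequencing.

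ISWI is the ATPase of several chromatin remodeling complexes that slide and space nucleosomes, and its loss is known for a decondensed X chromosome in male larvae. A male third-instar larva differs from a female one mainly in its gonad: the testis is already large and filled with spermatocytes, which transcribe many genes used in no other tissue. A transcript found in males alone in whole larvae is often one of the germ line, but no annotation that names these transcripts, or that names markers of testis among the known transcripts, was used here, so the tissue of origin was not checked. In RNA from whole larvae, fewer cells of a type and less RNA per cell cannot be told apart. The names have the form MSTRG.locus.transcript, where StringTie numbers the loci and the transcripts within each. Transcripts of 1 locus can share exons, and StringTie divides the reads of shared exons among them, so they are not independent measurements.

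With the sexes exchanged in every threshold, 3 assembled transcripts were found. The same male-limited thresholds were met by 1043 of 31271 known transcripts and by 4 of 3840 TE insertions. In control males the 89 transcripts had means from 50.04 to 7616 normalized counts, with a median of 212, and 11 had a mean of at least 1000. The control male libraries were uneven for some of them: the highest library was at most 2 times the lowest for 40 of the 89, and over 5 times for 21. In control females 84 were at 0 in all 3 libraries. In mutant females 69 were at 0 in all 3 libraries, and 8 had a library at 10 or more, the highest value being 25.5 for MSTRG.1509.4.

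The nearest transcripts on either side of each threshold show how sharp the choice was. The highest control female value of a chosen transcript was 2.43, in MSTRG.13118.1, followed by 1.83 in MSTRG.6760.1, and the nearest transcripts left out for this reason alone had 4.86 (MSTRG.16179.1) and 5.498 (MSTRG.12354.32). The lowest control male means inside were 50.04 (MSTRG.16943.10) and 53.2 (MSTRG.2027.1), against 49.1 (MSTRG.82.1) and 45.1 (MSTRG.15158.6) outside. The lowest control male minimum inside was 11.3, in MSTRG.6103.3, followed by 16.9 in MSTRG.17332.1, and the highest outside was 7.52, in MSTRG.5421.16, followed by 0 in MSTRG.10.2. The highest mutant female means inside were 8.51 (MSTRG.1509.4) and 7.45 (MSTRG.3551.1), against 11.2 (MSTRG.4910.5) and 11.3 (MSTRG.10079.1) outside. The control female limit alone left out 211 transcripts, the control male minimum 154, the mutant female limit 30 and the control male mean 9.

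The libraries held between 89290368 and 119202607 reads, and 3 reads, taken as the limit of detection, came to between 1.89 and 3.76 normalized counts. One mutant male library stood apart from the other 2. A read was found for 91.54% of all transcripts in mutant male 2, against 84.51% in mutant male 1 and 83.85% in mutant male 3. The summed normalized count of the 1043 known male-limited transcripts was 33.1% of the control male mean in mutant male 2, against 10.1% in mutant male 1 and 7.95% in mutant male 3. Control male 2 was likewise the highest of the control males. A read was found there for 90.68% of all transcripts, against 87% in control male 1 and 83.75% in control male 3. Its known male-limited sum was 115.7% of the control male mean, against 93.07% and 91.24%. The counts of all 89 and of the known transcripts are given below for the 3 mutant male libraries together and for each. The part of mutant male 2 in the results was not tested beyond leaving it out.

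In mutant males the male-limited assembled transcripts fell into 3 classes. A transcript was counted as kept when all 3 mutant male libraries were at 10 or more, as lost when all 3 were at 3 or less, and as mixed otherwise. Of the 89 transcripts, 19 (21.3%) were kept, 20 (22.5%) were lost and 50 (56.2%) were mixed. By library, 35 were at 10 or more in mutant male 1, 61 in mutant male 2 and 31 in mutant male 3. At 3 or less there were 50, 23 and 53. Most of these were at 0: 48 in mutant male 1, 22 in mutant male 2 and 50 in mutant male 3. Without mutant male 2, 39 transcripts counted as lost in place of 20, while the number kept was 19 with and without it. Without mutant male 1 the number kept was 30, and without mutant male 3 it was 33.

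**Figure D1:**
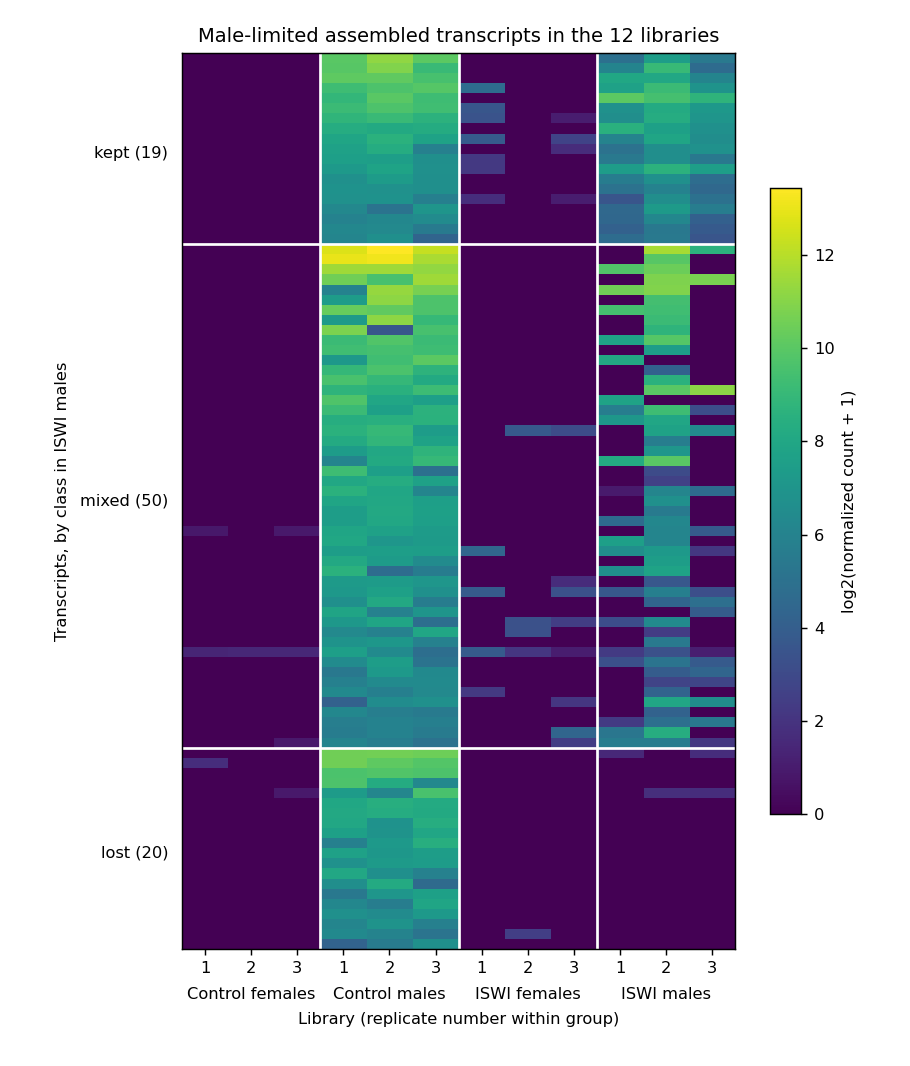
Heat map of the 89 male-limited assembled transcripts (rows) in the 12 libraries (columns), colored by log2(normalized count + 1) and ordered by class in mutant males and by control male mean. The 19 kept transcripts are present in all 3 ISWI male libraries, the 20 lost ones are dark in all 3, and most of the 50 mixed ones are dark in libraries 1 or 3 and present in library 2.

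The mixed class was not a set of faint transcripts. It held the most abundant ones, with control male means from 50.04 to 7616 and a median of 231.5, against a median of 195.9 for kept and 179.2 for lost transcripts. Among the 8 possible patterns of presence at 10 or more, 17 transcripts were present in mutant male 2 alone, 14 in mutant males 1 and 2, and 11 in mutant males 2 and 3. No transcript was present in 1 and 3 without 2, 2 were present in mutant male 1 alone, and 1 in mutant male 3 alone. The remaining 25, 20 of them lost, reached 10 in none. Mutant male 2 was the highest of the 3 libraries for 56 of the 71 transcripts with any mutant male read.

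Known transcripts that met the same thresholds showed the same order of the libraries, with a smaller share at the floor. Of the 1043, 435 (41.7%) were kept, 577 (55.3%) mixed and 31 (2.97%) lost. They were at 10 or more for 55.6% in mutant male 1, 91.5% in mutant male 2 and 50% in mutant male 3, where the assembled ones had 39.3%, 68.5% and 34.8%. In each of the 3 libraries the assembled share was the lower one, but transcripts are not replicates and this difference was not tested. Of the assembled transcripts that met only the control male thresholds and were above a limit in females, 2590 of 3140 (82.5%) were kept and 143 (4.55%) lost. All 4 TE insertions were kept.

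**Figure D2:**
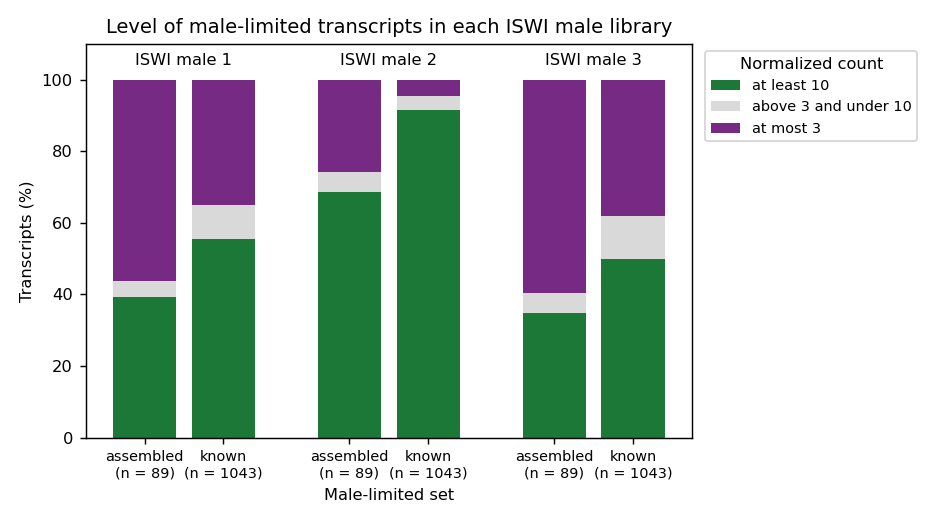
Share of male-limited transcripts (%) at a normalized count of at least 10, above 3 and under 10, and at most 3 in each ISWI male library, for the 89 assembled and the 1043 known transcripts. In each library the assembled transcripts have the larger share at 3 or less: 56.2%, 25.8% and 59.6%, against 35.1%, 4.51% and 38.2% for known ones.

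The summed level of the 89 transcripts told the libraries apart in the same order. It was 47343, 59732 and 39983 normalized counts in control males 1 to 3, and 7525, 23089 and 6367 in mutant males 1 to 3. The 2 groups did not overlap, and mutant males stood at 15.4%, 47.1% and 13.0% of the control male mean. The sums in control females were 4.86, 1.79 and 4.58, and those in mutant females 120, 39.0 and 62.8. The 2 most abundant transcripts alone gave 15045, 20382 and 8308 of the control male sums, and 0, 4275 and 404 of the mutant male sums. The median transcript stood at 0% of its control male mean in mutant male 1, at 36.9% in mutant male 2 and at 0% in mutant male 3, and the median known transcript at 5.06%, 30.7% and 3.08%. Ranked across the 89 transcripts, the control male libraries had Spearman's rho of 0.58 to 0.68 with each other and the mutant male libraries 0.34 to 0.48 (n = 89 transcripts that share libraries and, in part, loci).

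Mutant males were then compared with control males in a limma fit of log2(normalized count + 1) over the 35284 transcripts with at least 10 in at least 3 libraries, with Benjamini-Hochberg adjusted p under 0.05 as the threshold. All 89 passed this filter, 24 of them through the control males alone, which is what the choice by control male values ensures. Of the 89, 44 were called lower in mutant males and 0 higher, where 9.12% of all tested transcripts were called lower and 7.11% higher. Because the control male values selected the members, the count is a description and supports no direction by itself. At an unadjusted p under 0.05 limma also had 0 higher, and DESeq2 and edgeR called 0 higher. By class, 20 of the 20 lost, 21 of the 50 mixed and 3 of the 19 kept transcripts were called lower, which is no test of the classes, since the classes were set by the mutant male values and the members by the control male values. In 58 of the 89 all 3 mutant male libraries lay below all 3 control male libraries, against 19.8% of all tested transcripts, and in 0 they lay above. The log2 fold changes ran from -10.16 to 0.60 with a median of -4.44, against -0.10 over all tested transcripts. With the 18 transcripts that were at 0 in every mutant male library set to their bound, the median was -4.37.

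The number of calls depended on the tool and on the control libraries. On the recovered reads DESeq2 called 23 of the 89 lower and edgeR 21, and limma called 29 with the 2 male groups alone. Without control male 1, 2 or 3, the calls came to 6, 8 and 11, of 65 transcripts that still passed the filter, and without any filter to 31, 32 and 36 of 89.

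The lost class held transcripts that were abundant and even in control males. MSTRG.5421.9 had 1458, 1531 and 1430 normalized counts in control males and 1.98, 0 and 2.36 in mutant males, which is at most 2 reads in a library. The control libraries lay close together and the mutant ones were at the limit of detection (log2 fold change -9.42, standard error 0.59). MSTRG.13118.1 had 1475, 1096 and 922 in control males and 0 in all 3 mutant male libraries. It was at least 387-fold lower, with the bound set by 3 reads per library, or 3.002 normalized counts on average. MSTRG.15751.4 had 808, 887 and 825 and was at 0 in all 3 mutant male libraries, at least 279-fold lower. No p is given for lost transcripts, because their levels in both groups put them in the class. By the definition of the class, no lost transcript was above 3 in mutant male 2, the library that held most of the others.

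Further lost transcripts were less abundant or less even. MSTRG.7922.1 had 280.5, 316 and 286 in control males and 0 in every mutant male library, at least 97-fold lower. MSTRG.5775.24, at 252, 346 and 301, and MSTRG.5775.27, at 264, 115 and 331, were transcripts of 1 locus and were also at 0 throughout, at least 99-fold and 78-fold lower. Both sat at the floor in the same 3 libraries. MSTRG.15587.6 had 829, 308 and 77.7 in control males, a wide spread, and 0 in mutant males, at least 134-fold lower. MSTRG.7173.1 was the other lost transcript with any mutant male read: it had 165, 70.4 and 763 in control males and 0, 2.51 and 2.36 in mutant males, so its lowest control library still lay far above the mutant ones. Of the 20 lost transcripts, 18 were at 0 in all 3 mutant male libraries, and all 20 were at 0 in mutant females but for MSTRG.9663.1, with 4.59 in 1 library.

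The kept class ran from transcripts at the control level to transcripts at a small share of it. MSTRG.8032.2 had 481, 1023 and 612 in control males and 1078, 720 and 428 in mutant males. The groups overlapped over their whole range (log2 fold change 0.05, standard error 0.53, adjusted p = 0.97), and the sign turned to -0.27, -0.19 and -0.02 without mutant male 1, control male 1 and control male 3. MSTRG.17075.4 had 148, 222.5 and 105 in control males and 169, 396 and 184 in mutant males, with 2 mutant libraries inside the control range and mutant male 2 above it (log2 fold change 0.60, standard error 0.73, adjusted p = 0.62). MSTRG.17075.5, of the same locus, had 206, 325 and 56.4 against 32.6, 99.5 and 110, which overlap, with mutant male 1 the one library below the controls. MSTRG.2224.1, even in control males at 325, 286 and 304.5, had 371, 199 and 107 in mutant males. Mutant male 1 lay above the controls and the other 2 below (log2 fold change -0.61, standard error 0.56, adjusted p = 0.52). These intervals are wide, and a test that missed the threshold does not show that the level was the same.

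MSTRG.8372.2 was present in every mutant male library and yet called lower. It had 1017, 2403 and 1054 in control males and 30.6, 177 and 42.4 in mutant males, so that every mutant library lay far below every control (log2 fold change -4.46, standard error 0.71, adjusted p = 0.0026 in limma and 0.043 in edgeR). MSTRG.9065.2 had 1101, 1128 and 751 against 260, 262 and 66.0, again without overlap (log2 fold change -2.56, standard error 0.62, adjusted p = 0.021 in limma, 0.0054 in DESeq2 and 0.079 in edgeR). Without control male 1 or 2 or mutant male 3 its adjusted p was between 0.052 and 0.074. The third of the called transcripts, MSTRG.17326.1, had 994, 1920 and 546 against 67.1, 537 and 24.7. Mutant male 2 lay just below the lowest control, and the call (log2 fold change -3.37, standard error 0.99, adjusted p = 0.043) was lost in edgeR (adjusted p = 0.27) and DESeq2 (0.2), and without any 1 of the control male libraries or mutant males 1 or 3 (0.061 to 0.14).

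MSTRG.6539.1 had 570, 831 and 647 in control males and 109, 294 and 144 in mutant males, and missed the threshold although the groups did not overlap (log2 fold change -2.01, standard error 0.92, adjusted p = 0.17, and 0.044 with a pseudocount of 4). MSTRG.1509.4 had 625, 819 and 942 against 204, 578 and 118, all below the controls, and it was the one with the highest mutant female level, 25.5, 0 and 0. MSTRG.265.1 had 77.9, 33.3 and 129 against 22.7, 158 and 51.9, which overlap. Over the 19 kept transcripts the median share of the control male mean was 26.1% in mutant male 1, 67.1% in mutant male 2 and 22.3% in mutant male 3, and mutant male 2 was the highest library for 16. The mean of the 3 mutant male libraries was at least 0.5 of the control male mean for 6 of the 19.

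**Figure D3:**
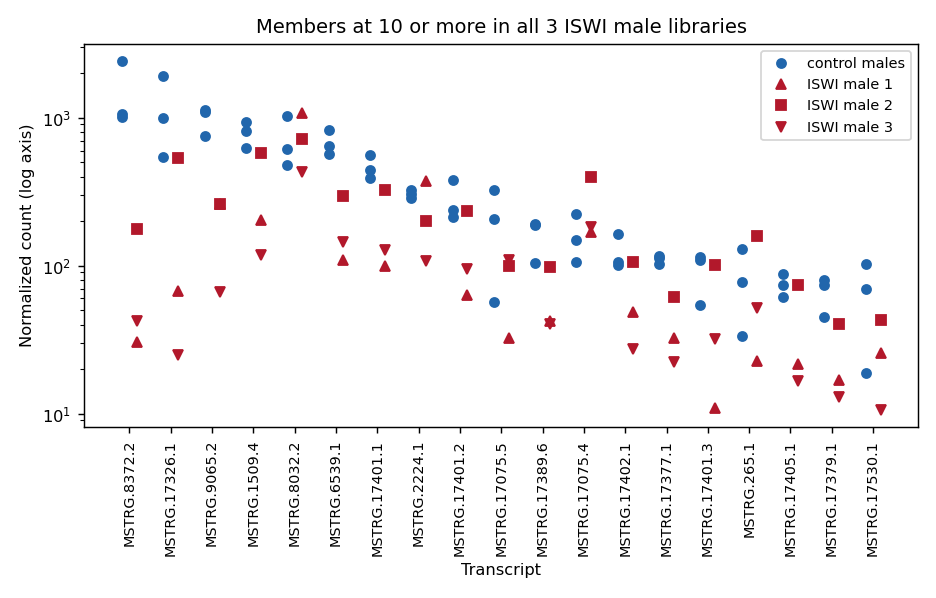
Normalized counts (log axis) of the 19 transcripts at 10 or more in all 3 ISWI male libraries, ordered by control male mean. Circles are the 3 control male libraries and triangles and squares the ISWI male libraries, of which library 2 (squares) is the highest for 16 transcripts.

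Mutant males were also set against mutant females. Of the 89, 22 were called higher in mutant males and these were all 19 kept transcripts and 3 mixed ones, where 2.99% of all tested transcripts were called higher. The mutant female values selected the members, so this count too is a description. DESeq2 called 47 and edgeR 5 on the recovered reads. The 2 mutant groups fitted alone gave 6 calls among the 23 transcripts that then passed the filter.

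The mixed class held the 2 most abundant transcripts of the set. MSTRG.8404.12 had 6801, 11147 and 4900 normalized counts in control males and 0, 3273 and 404 in mutant males. Every mutant library lay below every control, but the mutant ones were far apart (log2 fold change -6.03, standard error 2.25, adjusted p = 0.099), and without mutant male 2 the value was -8.48 (adjusted p = 0.017). MSTRG.2924.3 had 8244, 9235 and 3408 in control males and 0, 1002 and 0 in mutant males, present in mutant male 2 alone (log2 fold change -9.32, standard error 2.16, adjusted p = 0.017). This call was lost in edgeR (adjusted p = 0.35) and DESeq2 (0.52), with the male groups alone (0.084), and without mutant male 1 or 3 or control male 1 or 2 (0.055 to 0.06).

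At 2 loci the male-limited transcripts shared a pattern. At locus MSTRG.16109, MSTRG.16109.1 had 159, 2268 and 505 in control males and 0, 577 and 0 in mutant males. MSTRG.16109.2 had 753, 487 and 289.5 against 0, 381 and 0, and MSTRG.16109.12 had 169, 2298 and 838 against 0, 690 and 0. All 3 were at 0 in mutant males 1 and 3 and well above the floor in mutant male 2. In the settings that kept mutant male 2, only MSTRG.16109.2 was called lower, with a pseudocount of 4 (adjusted p = 0.045 in limma). No p is given for the fit without mutant male 2. There all 3 passed the filter only through the control males that chose them, and their only mutant male reads were left out. At locus MSTRG.11200 the missing library was another one. MSTRG.11200.2 had 2928, 2963 and 2500 in control males and 897, 1393 and 0 in mutant males, and MSTRG.11200.4 had 1268, 1157 and 826 against 718, 647 and 0. Both were at 0 in mutant male 3 alone, while the control libraries were even.

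The reverse pattern, absence from mutant male 1, was seen for MSTRG.12233.1, with 1480, 728.5 and 2966 in control males and 0, 1848 and 1703 in mutant males. The 2 libraries that had it lay inside the control range (log2 fold change -3.33, standard error 2.34, adjusted p = 0.38, and 0.27 on the log2 scale without mutant male 1). MSTRG.6079.27 was uneven in both groups, with 61.0, 2533 and 1622 against 1453, 1891 and 0, and the sign of its difference turned from -2.18 to 1.39 without mutant male 3. MSTRG.13642.1, outside the rule for named transcripts and chosen after its values were seen, had 427, 375 and 584 in control males and 0, 1030 and 2227 in mutant males. It was absent from 1 mutant library and above every control in the other 2. At locus MSTRG.2190 the pair differed in mutant male 2: MSTRG.2190.1 had 269, 315 and 204 against 0, 5.01 and 0, while MSTRG.2190.2 had 280.5, 165 and 87.7 against 0, 176 and 0. No p is given for MSTRG.2190.1, because it passed the filter only through the control males that chose it.

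Of the 77 loci, 36 also held assembled transcripts that are not male-limited by the thresholds, 150 in all. Known transcripts of the same loci could not be linked to them. Of the 45 male-limited transcripts at these loci 15 were lost (33.3%), and of the 44 at loci without other assembled transcripts 5 were (11.4%). The difference was not tested, and 5 of the lost ones belong to 1 locus. Of the 150 others, 124 passed the filter, with a median log2 fold change of -0.18 in mutant males. They are what the thresholds left at these loci, so their own control male level had a part in this set too. Of the 124, 14 were called lower and 12 higher, which are to be read against 9.12% and 7.11% of all tested transcripts. The calls sat at few loci: 6 of the 14 lower ones were at MSTRG.5421 and 3 at MSTRG.8404, and 8 of the 12 higher ones at MSTRG.6079. The interaction term of sex and genotype in the same fit was called for 4 of the 124, against 0.799% of all tested transcripts. Besides the loci named by the rule, MSTRG.15751, MSTRG.8404, MSTRG.10964 and MSTRG.9796 are described below, and these were chosen after their values were seen.

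At locus MSTRG.5421 all male-limited transcripts were lost, and the summed level of the other transcripts was lower as well. Its 5 male-limited transcripts summed to 1948, 1951 and 2233 in control males and 1.98, 0 and 2.36 in mutant males, and all 5 were lost. Besides MSTRG.5421.9 these were MSTRG.5421.4 (109, 160 and 169 in control males), MSTRG.5421.6 (74.1, 50.3 and 241), MSTRG.5421.11 (200, 121 and 244) and MSTRG.5421.17 (107, 89.3 and 149), each at 0 in every mutant male library and at least 48-fold, 40-fold, 62-fold and 38-fold lower. The 12 other transcripts summed to 4566, 4526 and 4585 in control males and 918, 381 and 778 in mutant males. Both sums were lower in every mutant male library than in any control male library. Not all of the other transcripts followed: MSTRG.5421.12 had 134, 163 and 189 in control males and 183, 0 and 167 in mutant males, with 2 libraries at the control level (adjusted p = 0.49).

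What remained at this locus in mutant males was of the order of the female level. The others summed to 593, 615 and 1092 in control females and 395, 338.5 and 323 in mutant females. MSTRG.5421.3, which 1 control female library kept out of the choice, had 1582, 1097 and 2271 in control males and 6.91, 5.85 and 16.5 in mutant males (log2 fold change -7.33, standard error 1.39, adjusted p = 0.0067). MSTRG.5421.8 had 1082, 581 and 1063 in control males and 0 in all 3 mutant male libraries, at least 302-fold lower. MSTRG.5421.18 had 31.0, 62.9 and 25.1 in control males and 610, 212 and 480 in mutant males and missed the threshold in limma (adjusted p = 0.056) and edgeR (0.085) but not in DESeq2 (0.0036). It stood at 295, 221 and 220 in mutant females against 27.5, 2.68 and 135 in control females. The locus total was lower by 3.34 on the log2 scale (standard error 0.36, adjusted p = 0.0001).

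Locus MSTRG.15751 lost 1 of its male transcripts and kept the other. MSTRG.15751.4 was at 0 in mutant males, as given above. MSTRG.15751.3 had 3182, 4029 and 3139 in control males and 833, 1813 and 826 in mutant males, below every control and far above the floor in all 3 libraries (log2 fold change -1.67, standard error 0.77, adjusted p = 0.17). It failed the control female limit by 1 library, with 0, 0 and 3.67, and the mutant female limit, with 38.9, 11.5 and 74.0. MSTRG.15751.4 made up 19.5% of the locus total in control males and 0% in mutant males.

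At locus MSTRG.8404, 3 of the 5 other transcripts were missing from the library that held the male-limited one. MSTRG.8404.3 had 0 in every control female library and 1815, 1353 and 2444 in control males, and failed the choice only by 1 mutant female library, with 0, 0 and 76.3. In mutant males it was at 0 throughout, at least 623-fold lower. So while MSTRG.8404.12 was at 3273 in mutant male 2, MSTRG.8404.3 had no read there. MSTRG.8404.8 and MSTRG.8404.11, found in both sexes of the controls, were also at 0 in all 3 mutant male libraries, from 79.8, 194 and 153 and from 162, 160 and 135 in control males (adjusted p = 0.00069 and 0.00047).

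At locus MSTRG.10964 the 2 transcripts moved in opposite directions. MSTRG.10964.1, the male-limited one, had 236, 268 and 189 in control males and 0, 106 and 0 in mutant males (log2 fold change -5.60, adjusted p = 0.031 in limma and 0.5 in edgeR). MSTRG.10964.2 had 53.5, 28.9 and 52.6 in control males and 249, 282.5 and 298 in mutant males, a rise in every library (log2 fold change 2.64, standard error 0.37, adjusted p = 0.0012). In females it had 274, 248 and 224.5 in controls and 250, 463.5 and 238 in mutants, so the mutant males stood at the level of the females. The male-limited transcript made up 83.7% of the locus total in control males and 11.4% in mutant males, and the total itself differed by 0.16 on the log2 scale (standard error 0.35, adjusted p = 0.82). At MSTRG.9796 the male-limited MSTRG.9796.6 had 639, 717 and 608 against 0, 178 and 0 (adjusted p = 0.019 in limma and 0.41 in edgeR), so that mutant male 2 still held it. MSTRG.9796.5 had 1405, 2526 and 1449 against 237, 677 and 192 (adjusted p = 0.037 in limma, 0.0073 in DESeq2 and 0.073 in edgeR).

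**Figure D4:**
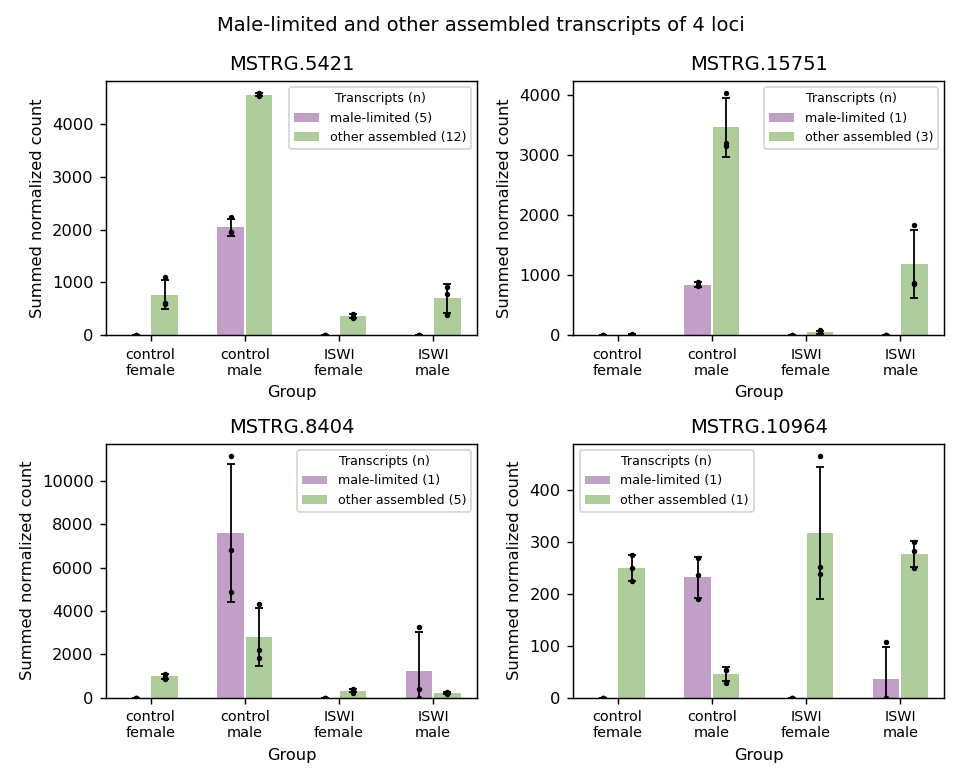
Summed normalized counts of the male-limited transcripts (purple) and of the other assembled transcripts (green) of 4 loci in the 4 groups. Bars are means, error bars 1 SD (n = 3 libraries) and dots libraries. At MSTRG.5421 both sums are high in control males alone, at MSTRG.15751 the other transcripts remain in ISWI males, at MSTRG.8404 the male-limited transcript remains in 2 libraries, and at MSTRG.10964 the other transcript is low in control males and not in ISWI males.

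Of the 8 loci with the most abundant other transcripts, MSTRG.11200 had 52.1% of its control male total in its 2 male-limited transcripts, and the male-limited share was smaller at the others. At MSTRG.9663 the male-limited MSTRG.9663.1 was lost, from 82.6, 63.5 and 35.1, while the others stood at 19085, 24049 and 17454 in control males and 17840, 18762 and 14108 in mutant males. At MSTRG.1300 the lost MSTRG.1300.13, at 40.3, 134 and 195.5 in control males, stood beside others at 14988, 14258 and 14556 against 13532, 11694 and 12147. The others overlapped between the groups at MSTRG.9663 and not at MSTRG.1300, where neither sum moved far. At MSTRG.6572 the lost MSTRG.6572.7, at 267, 103 and 58.9, stood beside others at 3909, 4386 and 4605 against 5921, 5140 and 6063. Male-limited transcripts were 1.06% of the control male total at MSTRG.5077, 3.47% at MSTRG.11081 and 3.91% at MSTRG.5451. At MSTRG.6079, with 10.6%, the others summed to 13664, 11395 and 10524 in control males and 22331, 21974 and 17747 in mutant males, and the total was the only one of the 77 called higher (log2 fold change 0.71, standard error 0.16, adjusted p = 0.014). With the 2 male groups fitted alone it was not called.

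Summed over all assembled transcripts of a locus, 30 of the 77 loci were called lower in mutant males and 1 higher, against 7.47% and 11.2% of all 2156 loci tested. Of the 41 loci without other assembled transcripts, 19 were called lower, and of the 36 with them, 11. The control male values had a part in choosing these loci. DESeq2 called 19 of the 77 lower and edgeR 15. Without control male 1, 2 or 3 the counts were 8, 10 and 11 of the 68 loci that then passed the filter, and without mutant male 3 the count was 17.

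Many of the kept transcripts carried neighboring locus numbers. The 10 male-limited loci with the highest numbers, from 17326 to 17530, held 12 male-limited transcripts, of which 10 were kept, 2 mixed and 0 lost, against 9 kept, 48 mixed and 20 lost among the other 77. This grouping was chosen after the values were seen and was not tested. The same range of numbers holds 34 assembled loci in the table. A locus number is an order in the assembly, and the chromosomes of these loci were not analysed here.

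In this group all 12 transcripts were at 10 or more in mutant males 2 and 3. At MSTRG.17401 the 3 transcripts were all kept: MSTRG.17401.1 had 440, 556 and 393.5 in control males and 99.7, 325 and 127 in mutant males, MSTRG.17401.2 had 237, 377 and 213 against 63.2, 236 and 95.5, and MSTRG.17401.3 had 109, 114 and 53.9 against 10.9, 100.3 and 31.8. Their sum was 786, 1048 and 660 in control males and 174, 661 and 255 in mutant males, where mutant male 2 reached the lowest control and the others did not (log2 fold change of the total -1.40, standard error 1.06, adjusted p = 0.41). The 2 mixed transcripts, MSTRG.17332.1 with 0, 247 and 94.3 in mutant males and MSTRG.17392.8 with 0, 213 and 87.2, were at 0 in mutant male 1 alone.

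The mean of the mutant male libraries was between 18.2% and 157% of the control male mean in these 12, with a median of 40.6%, against a median of 13.2% in the other 77 and 14.4% in the known male-limited transcripts. MSTRG.17326.1 was the only one of the 12 called lower. The kept transcripts of this group not yet given were MSTRG.17377.1, with 115, 112 and 103 in control males and 32.6, 61.0 and 22.4 in mutant males, MSTRG.17379.1, MSTRG.17389.6, MSTRG.17402.1, MSTRG.17405.1 and MSTRG.17530.1, the last with 69.4, 102.5 and 18.8 against 25.7, 42.6 and 10.6. Of these MSTRG.17377.1 was one whose groups did not overlap, and those of MSTRG.17530.1 did.

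**Figure D5:**
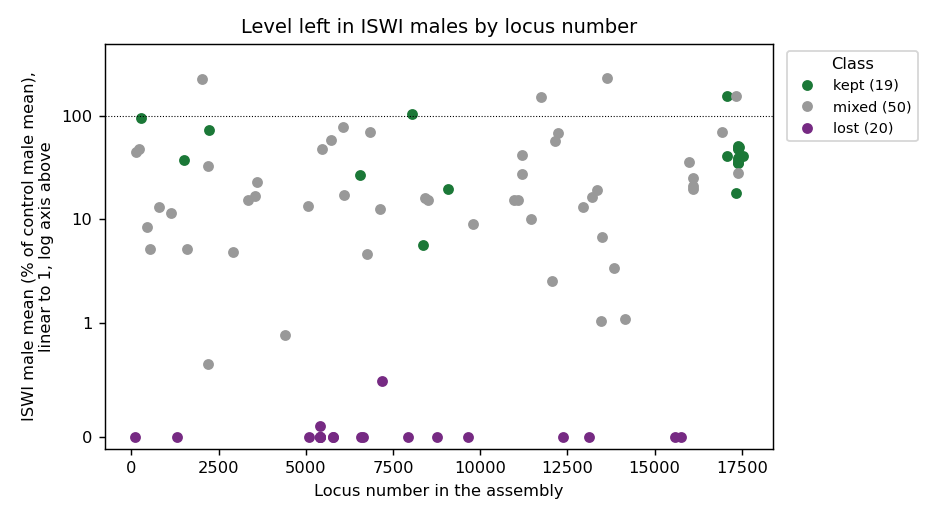
Mean of the 3 ISWI male libraries as a percentage of the control male mean (linear to 1, log axis above) against locus number, for the 89 transcripts colored by class. The 12 transcripts at the right, with locus numbers from 17326, lie between 18.2% and 157%, and the lost ones (purple) lie at or close to 0 at lower numbers.

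The remaining mixed transcripts repeated these patterns at lower levels. Among the 50, 29 had all 3 mutant male libraries below all control male libraries and 10 had a mutant male mean of at least 0.5 of the control male mean. Apart from the lost ones, 5 transcripts reached 10 in no mutant male library. Among them MSTRG.6760.1 had a read in every mutant male library, with 193, 86.8 and 27.6 in control males and 3.95, 9.19 and 1.18 in mutant males, and it was also found in mutant females at 13.4, 3.44 and 1.12. The 2 groups of males did not overlap (log2 fold change -4.04, standard error 0.95, adjusted p = 0.018 in limma and 0.037 in edgeR), and mutant males lay in the range of mutant females. MSTRG.13471.3 had 494, 794.5 and 411 against 0, 17.6 and 0, and MSTRG.4391.1 had 624, 190.5 and 30.1 against 0, 7.52 and 0. MSTRG.13210.1, with 858.5, 244.5 and 193 against 214, 0 and 0, and MSTRG.11081.2, with 141, 637 and 1059 against 280, 0 and 0, were the 2 present at 10 or more in mutant male 1 alone. Apart from MSTRG.6760.1, the transcripts of this paragraph were chosen after their values were seen.

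For comparison, the 3 most abundant known male-limited transcripts of each class are given by their identifiers. FBtr0082046 was kept, with 7903, 11098 and 6475 in control males and 387, 2150 and 483 in mutant males, and so were FBtr0076286 and FBtr0079856. FBtr0304742 was mixed, with 2067, 3880 and 1986 against 0, 790 and 0, the pattern of MSTRG.2924.3, and FBtr0080132 (9.87, 226.5 and 0 in mutant males) and FBtr0081881 (908, 2009 and 0) were mixed as well. FBtr0086941 was lost, with 1649, 1799 and 1555 against 0 in all 3 mutant male libraries, as were FBtr0080718 and FBtr0330619. Loss, patchy presence and retention were thus seen in known transcripts as in assembled ones. Among the TE insertions, FBti0064102-RA had 100.4, 57.2 and 73.9 in control males and 65.2, 131 and 57.7 in mutant males, which overlap. FBti0064092-RA, with 78.8, 46.5 and 65.2 against 65.2, 128.7 and 54.2, overlapped as well. FBti0019239-RA had 46.9, 52.2 and 94.0 against 12.8, 18.4 and 22.4, without overlap. In 2 of the 4 TE insertions all mutant male libraries lay below all control male libraries.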

How the data were processed

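RNA was sequenced from whole third-instar larvae, 3 libraries in each of 4 groups, taken from the labels, and all 12 were used. Ribosomal RNA was depleted, and the authors used Trimmomatic 0.39 for trimming and HISAT2 2.2.1 for mapping to BDGP6, assembled and quantified transcripts with StringTie 2.1.5, kept multi-exon assembled transcripts over a length minimum, and normalized in DESeq2 1.32.0, versions per the labels. The deposited signal is a normalized count: reads per transcript over the size factor of the library. Size factors of 0.798 to 1.59 turned 100% of the values up to 1000 reads back into whole numbers, with a tolerance of 0.01. Depth was 89290368 to 119202607 reads per library, and a count of up to 3 reads was taken as the limit of detection, which covers counting error only.

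The main test was limma 3.58.1 (R 4.3.3) on log2(normalized count + 1), with 1 mean per group over all 12 libraries, an intensity trend, a filter of at least 10 in at least 3 libraries and Benjamini-Hochberg adjustment over all transcripts that passed. Fold changes on this scale understate those of low transcripts. Locus totals were tested in the same way on sums of the assembled transcripts. The edgeR quasi-likelihood test (4.0.16) and DESeq2 (1.42.0) used the recovered reads and served as alternatives, beside TMM normalization, pseudocounts of 0.5 and 4, no filter, the compared groups alone, the replicate number as a block and leaving out each library. The scripts were tested on simulated counts with known changes put into mutant males. No transcripts limited to males were built into these counts, so they do not show how the tests behave for such transcripts.

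Members and lists were chosen with earlier results of these data known. The transcripts named are the 8 of each class with the highest control male mean, those of loci with 2 or more members, the nearest 2 on each side of each threshold, the 3 highest known and TE ones of each class, and the 8 loci with the most abundant other transcripts. Where others are named, this is said. Replicates are separate pools of larvae only as far as the labels say, so p-values measure the spread between these libraries. Annotation, sequence, chromosome and tissue markers of the transcripts were not analysed here.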

Additional observations from a re-analysis of the deposited data

Results flagged for a closer look

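The interaction term of sex and genotype in the limma fit was called for 4 assembled transcripts that share a locus with male-limited ones. For MSTRG.8404.3 the effect in males minus that in females was -12.92 on the log2 scale (standard error 1.99, adjusted p = 0.017), with 1815, 1353 and 2444 normalized counts in control males, 0 in every mutant male and control female library, and 0, 0 and 76.3 in mutant females. For MSTRG.5421.8 it was -7.21 (adjusted p = 0.04), with 1082, 581 and 1063 in control males, 0 in every mutant library of both sexes, and 0.81, 2.68 and 30.2 in control females. With both mutant groups at 0, this term is only the sex difference of the controls. For MSTRG.15751.3 the interaction was -5.99 (standard error 1.08, adjusted p = 0.038), from 3182, 4029 and 3139 to 833, 1813 and 826 in males and from 0, 0 and 3.67 to 38.9, 11.5 and 74.0 in females.

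For MSTRG.15587.10 the term had the other sign, at 7.85 (standard error 0.72). It had 184, 201 and 327 in control females and was at 0 in the other 9 libraries. The male-limited MSTRG.15587.6 of the same locus had 829, 308 and 77.7 in control males and was at 0 in the other 9. With both mutant groups at 0, the term for MSTRG.15587.10 is again only the sex difference of the controls. No p is given for it, because it passed the filter through the control females alone. No group had enough libraries for a search for single outlying ones.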

How the results depend on the processing

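Against control males, 44 male-limited transcripts were called lower: DESeq2 called 23, edgeR 21 and the male groups alone 29, leaving out 1 library gave 6 to 58, and the other settings gave 39 to 53. Without a filter, 31, 32 and 36 were called when control male 1, 2 or 3 was left out, a setting chosen after seeing the data. Against mutant females, 22 were called higher: DESeq2 called 47, edgeR 5 and the mutant groups alone 6, and leaving out 1 library gave 19 to 32. For the other transcripts of the loci, edgeR called 6 lower in place of 14. For locus totals, DESeq2 called 19 lower in place of 30, edgeR 15 and the male groups alone 19, leaving out 1 library gave 8 to 39, and the male groups alone called 0 higher in place of 1. Kept transcripts numbered 19 to 33 and lost ones 21 to 39, in place of 19 and 20, when 1 mutant male library was left out. With TMM scaling, a limit in reads or stricter thresholds they numbered 14 to 19 and 17 to 20. The cause of these differences was not tested, except that fewer transcripts pass the filter when a control male library is left out (65 of 89).

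Among 35 named transcripts the sign turned for MSTRG.8032.2 (0.05; -0.27, -0.19 and -0.02 without mutant male 1, control male 1 and control male 3, and up to 0.39 without another), MSTRG.6079.27 (-4.06 to 1.39) and MSTRG.12233.1 (-5.16 to 0.27) when 1 library was left out. Of the 17 called lower, 13 kept the call in every setting that tested them. Most of the 13 were lost transcripts, which pass the filter through the control males alone. The filtered fits without 1 control male library therefore did not test them. Their class was set by the mutant male values, so the steadiness of these calls is a description and no support. The replicate number as a block gave 42 calls in place of 44 against control males and 19 in place of 22 against mutant females. Same-numbered control and mutant males had correlations of their deviations of 0.00734, 0.186 and 0.0773. The highest was that of replicate 2, and whether same-numbered libraries share more than a number was not tested. Levels under 3 reads could not be told from absence at this depth.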
